A study of Mus musculus with 6 samples.

Results

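The ERBB receptor genes *Egfr*, *Erbb2*, *Erbb3* and *Erbb4*, the ligand genes *Nrg1*, *Hbegf*, *Areg*, *Ereg* and *Btc*, and the feedback inhibitor gene *Errfi1* were followed across YAP6SA, YAP5SA and GFP cardiomyocytes (CMs). These 10 genes were taken by their symbols from the 54532 genes of the count table, and all 10 were found. Wildtype ICR mice received a subcutaneous injection of 1e+11 viral genomes of AAV9 at postnatal day 6 (P6), and hearts were taken at P9. The virus carried GFP, YAP6SA or YAP5SA behind the cardiac troponin T (cTnT) regulatory element, which drives expression in CMs. YAP5SA lacks the LATS1/2 phosphorylation sites that restrain YAP, and YAP6SA carries a further serine-to-alanine change in the region that binds TEAD. CM nuclei were pulled down with anti-PCM1, and their poly-A RNA was sequenced without strand information. Each group had 2 libraries, 1 in each of 2 labelled batches. The labels state that 2 hearts were collected per virus, so p-values measure the spread between these libraries, and every mouse carried an AAV9 with a cTnT cassette.

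ERBB proteins are receptor tyrosine kinases that signal as pairs. ERBB2 binds no known ligand and acts as a partner, ERBB3 has little kinase activity of its own, and ERBB4 and EGFR bind ligand and signal as kinases. In the heart, NRG1 made largely by endothelial and endocardial cells acts on ERBB4 and ERBB2 in CMs, a pathway needed for trabeculation and known for its effect on the proliferation of neonatal CMs. HBEGF, AREG, EREG and BTC are made as membrane-bound precursors and are released by metalloproteases, and ERRFI1 (MIG6) binds active ERBB kinases and inhibits them.

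Libraries held 14552847 to 19615627 gene counts, and a gene at 0 counts could hold up to 3 by counting error alone. Markers of CMs (10 genes, such as *Tnnt2* and *Myh6*) summed to 35401 to 79539 CPM (counts divided by library size, scaled by TMM), against 622 to 957 CPM for 10 endothelial and 860 to 1777 CPM for 8 fibroblast markers. The summed CM markers were lowest in the YAP5SA libraries, at 48659 and 35401 CPM. Fewer nuclei of a type and less RNA per nucleus cannot be told apart in bulk RNA. Counts of *Yap1* did not pass the test in YAP6SA (log2 change -0.09, adjusted p = 0.952) or YAP5SA CMs (-0.17, adjusted p = 0.495) against GFP, and whether cassette RNA counts toward this gene is not given in the sources used here. *Ccn2*, a direct YAP and TEAD target, had a log2 change of 0.67 in YAP6SA CMs (adjusted p = 0.874) and rose by 3.33 in YAP5SA CMs (adjusted p = 0.000998).

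The bases upstream of *Erbb2* and *Errfi1* are shown because they held GGAATG, the letters that TEAD proteins, the main DNA-binding partners of YAP, recognise. Those of *Erbb4* held no GGAATG and are shown beside them. Those of *Egfr*, *Areg* and *Btc* also held no GGAATG and are not printed. RefSeq start-site windows of GRCm38.p6 span 300 bases, from 250 before to 50 after the start. They were examined for 6 of the 10 genes, *Egfr*, *Erbb2*, *Erbb4*, *Areg*, *Btc* and *Errfi1*. Windows of *Nrg1*, *Erbb3*, *Hbegf* and *Ereg* were not examined, so no motif result is given for these genes. Of all 32851 windows, 14.7% held GGAATG on either strand and 20.8% held the CRE core TGACG. The sequences run 5′ to 3′ toward the gene, with GGAATG or TGACG on either strand in capitals. The *Erbb2* stretch lies at chr11:98412234-98412469 (+ strand), the *Errfi1* stretch at chr4:150853546-150853795 (+ strand) and the *Erbb4* stretch at chr1:69108060-69108309 (- strand).
Erbb2 upstream: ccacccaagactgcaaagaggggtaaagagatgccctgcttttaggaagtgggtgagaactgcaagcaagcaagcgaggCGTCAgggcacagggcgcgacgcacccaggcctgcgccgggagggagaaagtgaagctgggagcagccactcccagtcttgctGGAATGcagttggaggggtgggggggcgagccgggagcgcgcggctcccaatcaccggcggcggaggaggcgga
Errfi1 upstream: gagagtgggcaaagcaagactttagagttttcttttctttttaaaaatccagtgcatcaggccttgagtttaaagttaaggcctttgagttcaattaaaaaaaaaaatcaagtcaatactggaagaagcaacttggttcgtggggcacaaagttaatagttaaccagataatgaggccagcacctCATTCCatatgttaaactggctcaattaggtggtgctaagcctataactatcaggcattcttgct
Erbb4 upstream: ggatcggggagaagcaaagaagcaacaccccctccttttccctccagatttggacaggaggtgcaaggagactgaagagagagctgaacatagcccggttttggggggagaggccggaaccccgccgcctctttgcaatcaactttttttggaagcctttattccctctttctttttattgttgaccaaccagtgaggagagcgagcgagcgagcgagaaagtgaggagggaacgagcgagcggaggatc

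The *Erbb2* window held 1 TEAD match, at -88 from the start site, and 1 CRE core, at -171. The first of the *Errfi1* windows held 1 TEAD match at -65, and the windows of *Erbb4*, *Egfr*, *Areg* and *Btc* held none. CRE cores also lay in the *Areg* window (3), the *Btc* window (1) and the second *Errfi1* window (2), and none in those of *Erbb4* and *Egfr*. None of the 7 windows held the AP-1 letters TGANTCA (7.81% of all windows) or the CArG box of SRF (1.63%). A match of letters is a description and no evidence of binding.

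Among the receptors, *Erbb2* RNA was the most abundant per length in every library. In GFP CMs, it stood at 13.5 ± 0.489 RPKM (CPM per kilobase of exon; SD, n = 2), above 71.9% of the genes that passed the filter on low counts. *Hbegf* followed at 7.85 ± 1.18, *Erbb3* at 6.32 ± 0.186, *Errfi1* at 3.81 ± 0.741 and *Erbb4* at 1.80 ± 0.199 RPKM. *Btc* (0.489 ± 0.262 RPKM), *Egfr* (0.227 ± 0.0272 RPKM) and *Nrg1* (0.187 ± 0.0590 RPKM) were far lower. The GFP libraries overlapped only between *Egfr* and *Nrg1* among neighbours in this order, and *Hbegf* exceeded *Erbb3* by little more than its own SD. *Areg* had 0 counts in both GFP libraries, which allows up to 3 in each, and *Ereg* had 0 and 1.

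**Figure D1:**
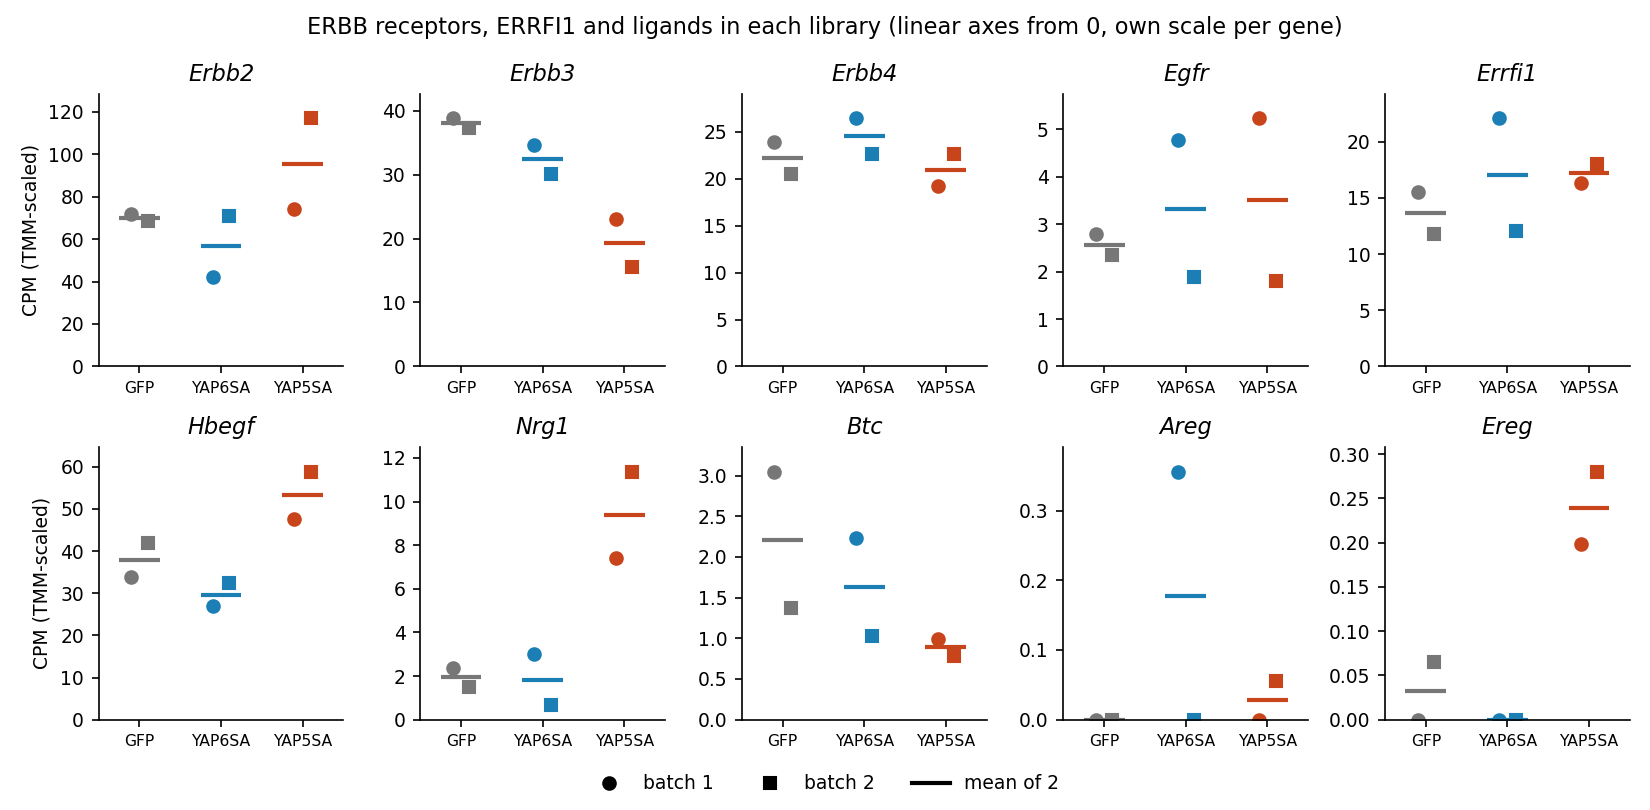
CPM of the 10 genes in each library, with circles for batch 1, squares for batch 2 and a line for the mean of 2 libraries; each panel has its own linear axis from 0. The YAP5SA libraries are lowest for *Erbb3* (23.1 and 15.6 CPM) and highest for *Nrg1* (7.42 and 11.4 CPM), and the *Areg* and *Ereg* panels span under 10 counts a library.

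The filter kept genes whose median log2 CPM was above 1 in at least 1 group, and 13323 genes entered the fit. Of the 10 members, 7 passed it. *Areg* and *Ereg* were near 0, and *Btc* just missed it with a median log2 CPM of 0.99 in GFP CMs. *Nrg1* passed only through its YAP5SA libraries, so a difference of that group was built into its entry. Fold changes are log2 values from edgeR with batch as a term, and a gene was called at an adjusted p (Benjamini-Hochberg) under 0.05.

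Comparing YAP6SA with GFP CMs asked what YAP does with its TEAD-binding region changed. None of the 7 members was called by edgeR, against 0.0450% of all genes tested, and none had an unadjusted p under 0.05 in the main fit. DESeq2 and the other alternative tests also called none. In edgeR fits of only the 4 libraries compared, *Erbb2* and *Hbegf* had an unadjusted p under 0.05. So did *Erbb2* with no filter and *Hbegf* with DESeq2 size factors. The smallest p of the main fit belonged to *Hbegf*. Its libraries lay lower in YAP6SA (27.0 and 32.3 CPM) than in GFP CMs (33.9 and 42.0 CPM), with a log2 change of -0.35 (95% interval -0.71 to 0.01, adjusted p = 0.842). *Erbb3* was also below GFP in both batches (34.6 and 30.1 against 38.8 and 37.2 CPM), at -0.24 (-0.67 to 0.20). The intervals leave room for sizeable changes, from -0.83 to 0.08 for *Erbb2* and from -1.49 to 1.21 for *Nrg1*.

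Comparing YAP5SA with GFP CMs, *Nrg1* rose and *Erbb3* fell, and 5 of the 7 members were not called. Over all genes tested 22.0% were called, so a count of 2 of 7 is near the background. The 2 include *Nrg1*, which entered the fit only through its YAP5SA libraries. *Nrg1*, the neuregulin ligand of ERBB3 and ERBB4, was the member with the largest change, and *Erbb3* was the only receptor called.

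*Nrg1* (chr8:31814551-32884029) had 45 and 23 counts in GFP, 59 and 11 in YAP6SA, and 112 and 203 in YAP5SA libraries. These are 2.37 and 1.502, 3.001 and 0.667, and 7.42 and 11.4 CPM. Both YAP5SA libraries lay above all 4 others, while the YAP6SA libraries spread on either side of GFP. *Nrg1* rose 5.22-fold against GFP (log2 2.38, SE 0.583, adjusted p = 0.0177) and 5.74-fold against YAP6SA CMs (log2 2.52, SE 0.597, adjusted p = 0.0209). The log2 difference from GFP was 1.60 in batch 1 and 2.83 in batch 2. The call against GFP was lost without the batch 2 library of GFP (2.30, adjusted p = 0.103) or of YAP5SA (1.34, adjusted p = 0.149), and the change was 3.31 without the batch 1 YAP5SA library. The call against YAP6SA was lost without the batch 2 library of YAP6SA (1.61, adjusted p = 0.232) or of YAP5SA (1.58, adjusted p = 0.0891), and the change was 3.83 without the batch 1 library of YAP6SA and 3.54 without that of YAP5SA.

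Reads of *Nrg1* cannot be assigned to a strand, and 4.66% of its exonic bases overlap the opposite-strand *Gm26578*, which had 20 counts in all libraries against 453 for *Nrg1*. The 10 markers of endothelial cells, a known source of NRG1, summed to 841 and 661 CPM in YAP5SA, within the range of GFP and YAP6SA CMs (622 to 957 CPM), and 0 of 10 were called against GFP by edgeR, with 0 at an unadjusted p under 0.05. The 4 endocardial markers summed to 95.3 and 75.0 CPM in YAP5SA, 57.3 and 44.9 in GFP, and 117 and 58.1 in YAP6SA CMs, none at 0. In YAP5SA against GFP, all 4 had a positive log2 change by edgeR (median 0.67, 2 at an unadjusted p under 0.05). Of these, 1 (*Tmem100*) was called. The 5 epicardial markers summed to 183 and 321 CPM in YAP5SA and to 61.8 to 88.1 CPM in the other libraries, with no marker at 0. Of these, 4 passed the filter and 2 rose against GFP, *Wt1* by 3.17 and *Tbx18* by 1.30 on the log2 scale. Most of the YAP5SA sums came from *Wt1* (92.9 and 155 CPM) and *Tbx18* (64.5 and 149 CPM). The other 2 that passed were not called. *Msln* had 15.5 and 9.47 CPM in GFP and 15.6 and 9.75 in YAP5SA libraries, and *Upk3b* had 5.63 and 4.64 against 9.14 and 7.73. The part of epicardial and endocardial nuclei in the *Nrg1* result was not tested.

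*Erbb3* (chr10:128567523-128589652), the receptor that recruits PI3K when paired with ERBB2, had 38.8 and 37.2 CPM in GFP, 34.6 and 30.1 CPM in YAP6SA, and 23.1 and 15.6 CPM in YAP5SA libraries. The 3 groups did not overlap, and YAP5SA was the lowest. *Erbb3* fell to 0.501 of the GFP level (log2 -0.996, SE 0.199, adjusted p = 0.00767), by -0.74 in batch 1 and -1.25 in batch 2. Without the batch 2 library of GFP this call was lost (-0.84, adjusted p = 0.113). Against YAP6SA, *Erbb3* fell to 0.591 of its level (log2 -0.76, SE 0.198, adjusted p = 0.0307).

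Groups that do not overlap were common with 2 libraries each, at 34.3% of all genes between YAP6SA and GFP, 60.9% between YAP5SA and GFP and 57.6% between YAP5SA and YAP6SA. Of the 10 CM markers, 2 (*Ryr2* and *Pln*) fell against GFP in the YAP5SA CMs in which *Erbb3* fell, 9 had a negative log2 change, 6 had an unadjusted p under 0.05 and the median was -0.76. The part of the lower CM markers in the *Erbb3* result was not tested.

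**Figure D2:**
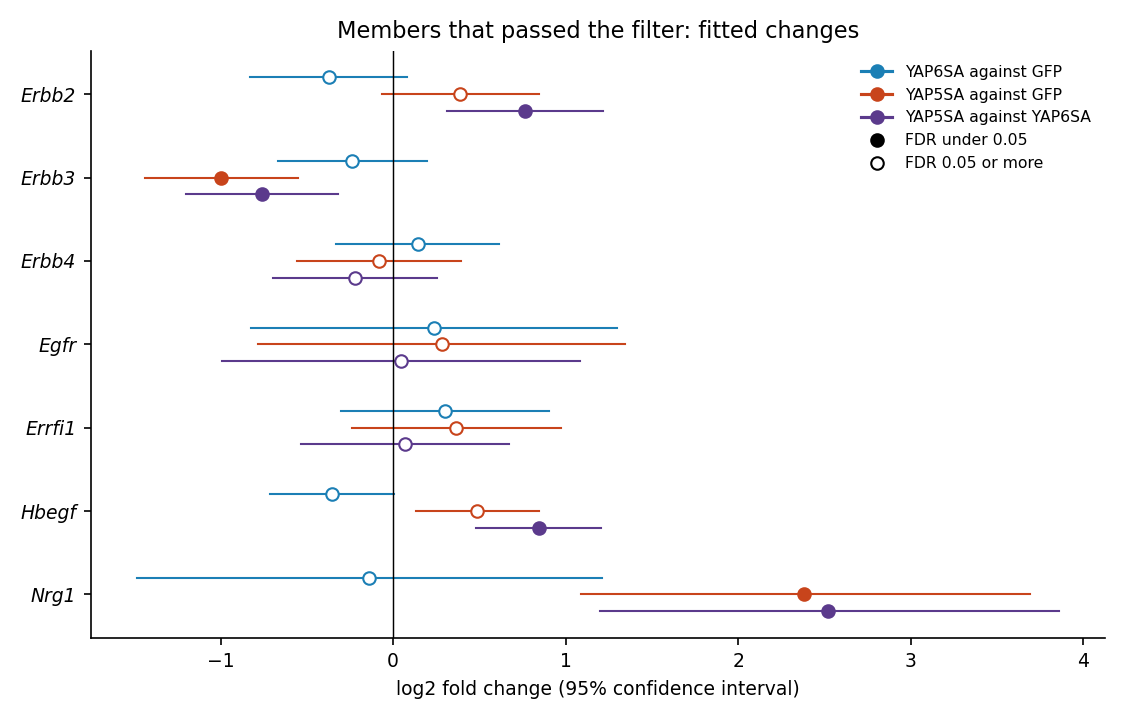
Log2 fold changes of the 7 members that passed the filter, with 95% confidence intervals, in the 3 comparisons; filled points have an adjusted p under 0.05. *Nrg1* (2.38 and 2.52) and *Erbb3* (-0.996 and -0.76) are filled against GFP and YAP6SA, *Hbegf* and *Erbb2* only against YAP6SA, and no YAP6SA against GFP point is filled.

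YAP5SA and YAP6SA differ by the change in the TEAD-binding region, and their CMs were compared directly. Here 4 of 7 members were called, against 14.7% of all genes tested. *Nrg1*, *Hbegf* and *Erbb2* rose and *Erbb3* fell. The 4 include *Nrg1*, which entered the fit only through its YAP5SA libraries, so this count is not independent of the filter. Without the batch term, 2 of 7 were called, since *Erbb2* (adjusted p = 0.114) and *Erbb3* (adjusted p = 0.0717) no longer passed. *Nrg1* and *Hbegf* passed with and without it.

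*Hbegf*, on chromosome 18, encodes heparin-binding EGF-like growth factor, a ligand of EGFR and ERBB4. Its libraries held 33.9 and 42.0 CPM in GFP, 27.0 and 32.3 in YAP6SA, and 47.6 and 58.8 in YAP5SA CMs. No groups overlapped, with YAP6SA lowest and YAP5SA highest. *Hbegf* rose 1.79-fold against YAP6SA (log2 0.84, SE 0.162, adjusted p = 0.00895), by 0.82 in batch 1 and 0.86 in batch 2. Against GFP the log2 change was 0.49 in either batch and 0.49 in the fit (95% interval 0.13 to 0.85), just short of the threshold (adjusted p = 0.0547). Of 9 alternatives, 1, the likelihood ratio test, called it (adjusted p = 0.0466), and the adjusted p reached 0.127 without the batch term. Of the 6 fits without 1 library, 1, that without the batch 1 YAP5SA library, called it (0.51, adjusted p = 0.0461), and the adjusted p reached 0.321 without the batch 2 GFP library. The call against YAP6SA was lost without the batch 1 (0.87, adjusted p = 0.0585) or batch 2 YAP6SA library (0.82, adjusted p = 0.139), with the size little changed. The 8 macrophage markers, a cell type known for HBEGF, summed to 95.5 and 141 CPM in YAP5SA, 81.6 and 110 in YAP6SA, and 65.9 and 94.1 in GFP CMs, none at 0. Of 7 that passed the filter, 0 rose against YAP6SA (edgeR, 1 at an unadjusted p under 0.05) and 2 against GFP (*C1qa* and *Lyz2*), and the part of macrophage nuclei was not tested.

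*Erbb2* (chr11:98412470-98437716), whose upstream bases are printed above, had 72.0 and 68.4 CPM in GFP, 42.0 and 71.1 in YAP6SA, and 74.1 and 117 in YAP5SA libraries. Its level separated YAP5SA from YAP6SA in both batches, but the batch 1 YAP5SA library lay close to GFP. *Erbb2* rose 1.70-fold against YAP6SA (log2 0.76, SE 0.203, adjusted p = 0.0329), by 0.82 in batch 1 and 0.72 in batch 2. Against GFP the change was 0.39 (-0.06 to 0.84, adjusted p = 0.197), made of 0.04 in batch 1 and 0.77 in batch 2. The call against YAP6SA was lost without the YAP6SA library of batch 1 (0.55, adjusted p = 0.234) or batch 2 (1.01, adjusted p = 0.0725) or the batch 2 YAP5SA library (0.61, adjusted p = 0.0910). The change against GFP passed without the batch 1 library of GFP (0.81, adjusted p = 0.0388) or of YAP5SA (0.56, adjusted p = 0.0438). For *Erbb3*, the fall against YAP6SA was lost in the fits without the same 3 libraries, at -0.81 (adjusted p = 0.126), -0.71 (adjusted p = 0.274) and -0.53 (adjusted p = 0.143).

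*Erbb4*, the main NRG1 receptor of CMs, was not called in any comparison. Its libraries held 24.0 and 20.5 CPM in GFP, 26.5 and 22.6 in YAP6SA, and 19.2 and 22.7 in YAP5SA CMs, and the 3 groups overlapped. The 95% intervals ran from -0.33 to 0.61 for YAP6SA against GFP, from -0.55 to 0.39 for YAP5SA against GFP and from -0.69 to 0.25 for YAP5SA against YAP6SA.

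*Egfr*, the receptor for the EGF family of ligands, was a low-count gene with 31 to 94 counts a library. Its levels were 2.79 and 2.35 CPM in GFP, 4.78 and 1.88 in YAP6SA, and 5.23 and 1.79 in YAP5SA CMs. Batch 1 was higher in each group, and the YAP libraries straddled GFP. The group changes were 0.23, 0.28 and 0.05 in the order of comparisons above, none called, while batch 2 differed from batch 1 by -1.05 (edgeR, adjusted p = 0.324). The 8 fibroblast markers moved with batch as well. They summed to 1367 and 860 CPM in GFP, 1777 and 984 CPM in YAP6SA, and 1496 and 906 CPM in YAP5SA libraries, all 8 had a negative batch difference, 1 of them called, and none was at 0. All 10 endothelial (median -0.38, none called, 7 at an unadjusted p under 0.05) and all 4 endocardial markers (median -0.61, none called, 2 at an unadjusted p under 0.05) also had negative batch differences by edgeR, while all 7 macrophage markers that passed the filter had positive batch differences (median 0.50, none called, 4 at an unadjusted p under 0.05). The part of these nuclei in the *Egfr* level was not tested. The batch term called 0.203% of all genes and no member.

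**Figure D3:**
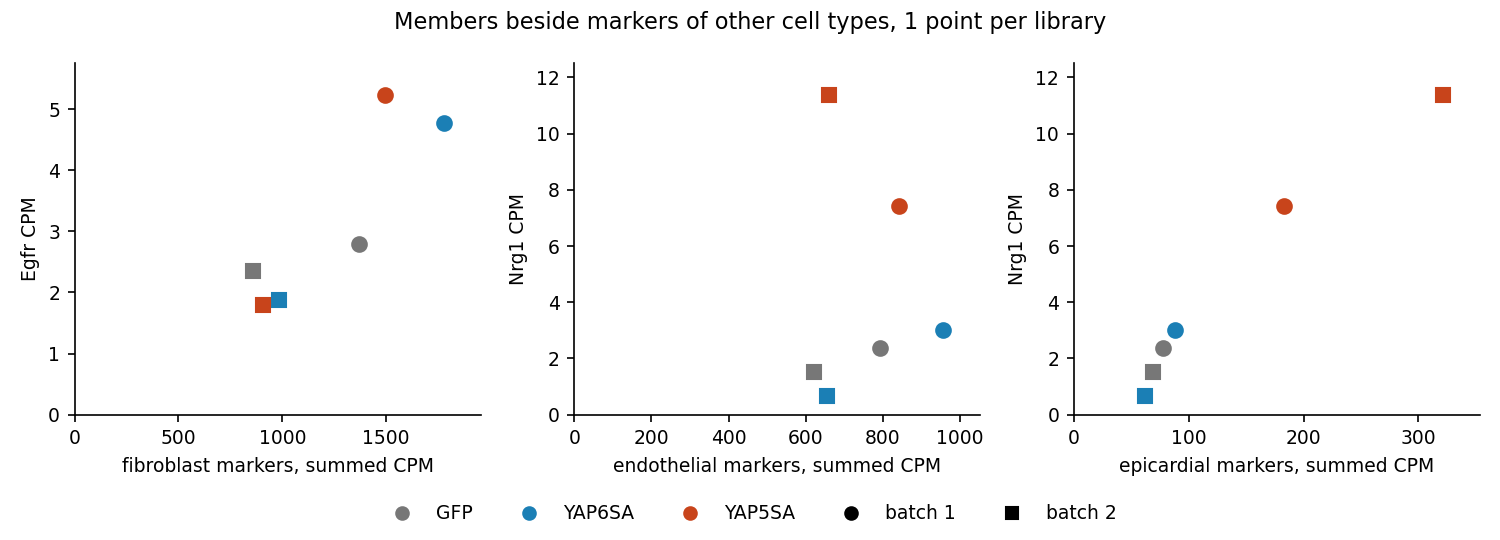
CPM of a member (vertical) against the summed CPM of markers of another cell type (horizontal), 1 point per library, coloured by group, with circles for batch 1 and squares for batch 2. The batch 1 libraries are the higher in *Egfr* and in fibroblast markers within each group. The YAP5SA libraries stand apart in *Nrg1* and in summed epicardial markers (183 and 321 CPM, mostly *Wt1* and *Tbx18*), and not in endothelial markers. Endocardial markers are not plotted.

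*Errfi1* encodes the ERBB inhibitor whose RNA is itself known to rise on EGFR signalling. It had 15.5 and 11.8 CPM in GFP, 22.1 and 12.1 in YAP6SA, and 16.3 and 18.0 CPM in YAP5SA libraries. Both YAP5SA libraries lay above GFP, and the batch 1 YAP6SA library was the highest. No change was called, at 0.30 (-0.30 to 0.90) for YAP6SA and 0.37 (-0.24 to 0.97) for YAP5SA against GFP and 0.07 (-0.54 to 0.67) between them. Without the batch 1 YAP5SA library, the change against GFP was 0.75 (adjusted p = 0.0355), and without the batch 2 YAP5SA library it was -0.03.

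The ligands that did not pass the filter were described without a call. *Btc*, encoding betacellulin, had 58 and 21 counts in GFP, 44 and 17 in YAP6SA, and 15 and 14 in YAP5SA libraries, and YAP5SA lay below the rest. In the fit of all 27396 genes with a count, its change was -1.21 in YAP5SA against GFP (-2.46 to 0.02, adjusted p = 0.261). *Areg*, encoding amphiregulin, had 7 counts in the batch 1 YAP6SA library, 1 in the batch 2 YAP5SA library and 0 in the others. *Ereg*, encoding epiregulin, had 3 and 5 counts in YAP5SA libraries, 1 in the batch 2 GFP library and 0 in the others. The opposite-strand *Gm19610* overlaps 3.42% of *Ereg* exons and had 25 counts in all libraries against 9 for *Ereg*, so its reads are uncertain.

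The makeup of the receptor pool was set out per length, as each gene's percent of the summed RPKM of the 4 receptors. *Erbb2* made up 61.5% and 62.0% in GFP, 49.2% and 66.1% in YAP6SA, and 70.8% and 83.0% in YAP5SA libraries. *Erbb3* made up 28.7% and 29.2%, 35.1% and 24.3%, and 19.1% and 9.58% in the same order. The YAP5SA pools thus held the largest *Erbb2* and the smallest *Erbb3* shares, while *Erbb4* took 6.80% to 13.1% over the 6 libraries. The summed receptor level was 22.4 and 21.2 RPKM in GFP, 16.4 and 20.6 RPKM in YAP6SA, and 20.1 and 27.0 RPKM in YAP5SA libraries, so both GFP libraries lay above both YAP6SA libraries and YAP5SA overlapped both groups.

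For the pool of all 11 ERBB ligands, *Hbegf* was the largest entry in every library, with 48.0% and 44.4% in GFP, 42.2% and 44.9% in YAP6SA, and 57.4% and 60.5% in YAP5SA. *Egf*, the founding ligand of EGFR, took 20.9% and 25.8% in GFP and 17.1% and 8.96% in YAP5SA libraries. *Nrg1* went from 1.56% and 0.742% in GFP to 4.17% and 5.46% in YAP5SA libraries. These shares are descriptive, since a change of 1 ligand moves the shares of the rest.

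**Figure D4:**
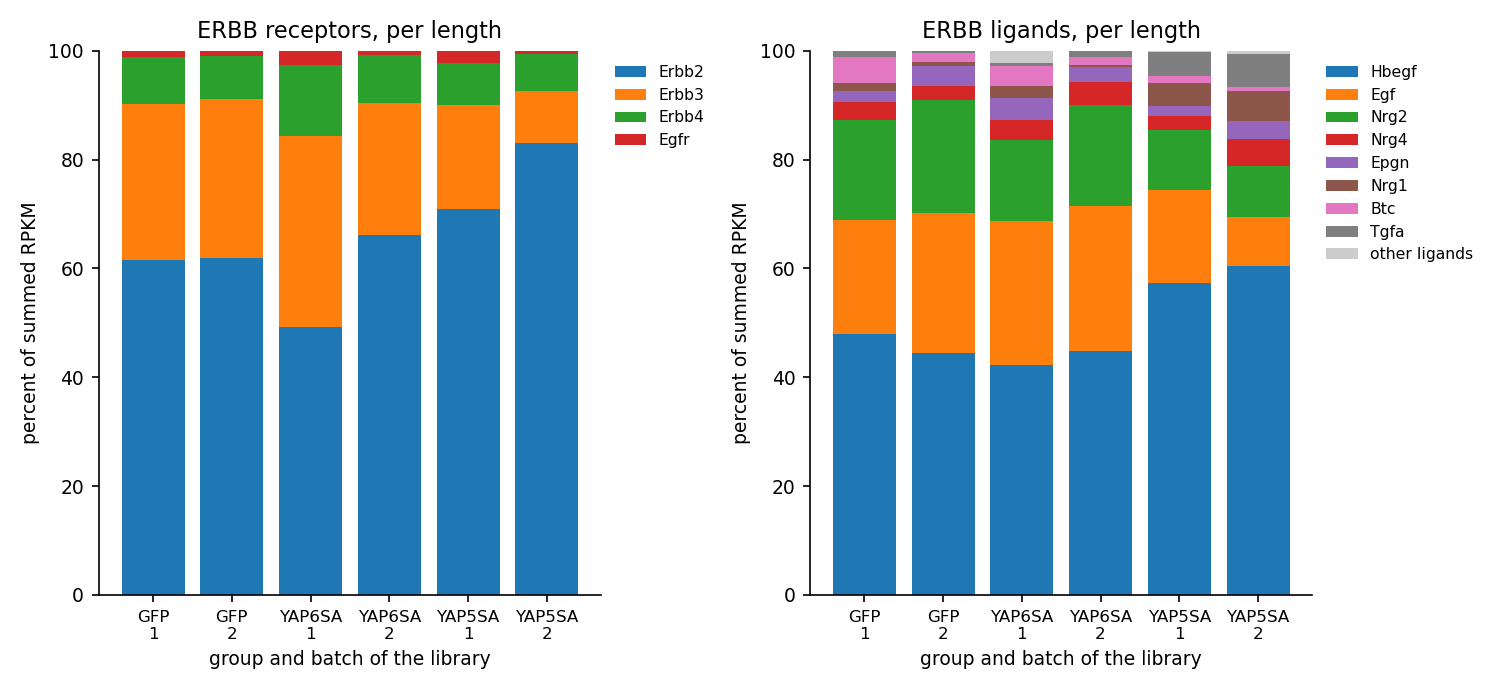
Percent of the summed RPKM of the 4 ERBB receptors (left) and of the 11 ERBB ligands (right) in each library, stacked to 100%; ligands under 2.5% in every library are pooled in grey. *Erbb2* takes 70.8% and 83.0% of the receptor pool in YAP5SA libraries against 61.5% and 62.0% in GFP, and *Hbegf* is the largest ligand share in all 6.

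The other 58 genes of the pathway were taken from a list of ligands, proteases, turnover factors, adaptors, kinases and feedback inhibitors, and 53 passed the filter. Against GFP, 0 were called in YAP6SA CMs by edgeR (4 at an unadjusted p under 0.05) and 0 by DESeq2. In YAP5SA CMs 9 rose and 2 fell, and against YAP6SA 9 rose and 1 fell. The median log2 changes were -0.01, 0.10 and 0.15, against medians between -0.01 and 0.00 over all genes. With 20.8% and 18.9% of the list called against backgrounds of 22.0% and 14.7%, the counts were near those of other genes.

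Of the other ligands, 4 of 6 passed the filter and *Tgfa* was called. TGFA binds EGFR, and its RNA had 1.16 and 0.457 CPM in GFP, 0.458 and 1.03 in YAP6SA, and 4.90 and 7.85 in YAP5SA libraries. *Tgfa* rose by 2.88 against GFP (SE 0.610, adjusted p = 0.00988) and by 3.11 against YAP6SA, and like *Nrg1* it entered the fit only through YAP5SA. *Egf* (-0.76, adjusted p = 0.0851) and *Nrg2* (-0.81, adjusted p = 0.0842) had lower values in YAP5SA than in GFP CMs and were not called.

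Among 7 ligand-processing genes that passed, 2 rose and 1 fell against GFP in YAP5SA CMs, which is 42.9% called against 22.0% of all genes. *Adam9*, a membrane metalloprotease that can release HBEGF, had 17.2 and 10.8 CPM in GFP and 46.9 and 79.7 in YAP5SA libraries, a rise of 2.21 (SE 0.336, adjusted p = 0.00220). *Rhbdf1*, an inactive rhomboid that helps ADAM17 mature, rose by 1.49 (187 and 155 to 366 and 610 CPM, adjusted p = 0.00235). *Adam17*, the main sheddase of EGFR ligands, fell by 0.51 (119 and 128 to 92.3 and 81.3 CPM, adjusted p = 0.0358). So genes of the same step moved in opposite directions. *Adam9* (1.69) and *Rhbdf1* (1.49) also rose against YAP6SA, where *Adam17* was not called (-0.22). That is 28.6% called against 14.7% of all genes.

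None of the 9 receptor-turnover genes that passed (ubiquitin ligases, LRIG proteins and the like) was called in any comparison by edgeR, with 1, 3 and 2 at an unadjusted p under 0.05 and log2 changes from -0.64 to 1.25. Of 16 adaptor and RAS-MAPK genes, 12.5% were called in each comparison of YAP5SA, against 22.0% and 14.7% of all genes. *Grb2*, the adaptor that links receptors to SOS, fell by 0.61 against GFP (47.6 and 55.4 to 32.9 and 34.4 CPM, adjusted p = 0.0220) and by 0.61 against YAP6SA. *Braf* rose by 0.77 against GFP (adjusted p = 0.0189), and *Gab1*, a docking protein for PI3K and SHP2, rose by 0.73 against YAP6SA (adjusted p = 0.0102).

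Of 8 PI3K-AKT genes, *Pik3r1* and *Pik3cb* rose in both comparisons and no gene fell. *Pik3r1*, the p85 regulatory subunit, went from 33.8 and 29.3 CPM in GFP to 59.1 and 82.5 CPM in YAP5SA libraries (log2 1.15, adjusted p = 0.00358). *Pik3cb*, a catalytic subunit, went from 10.3 and 6.86 to 16.3 and 31.1 CPM (log2 1.43, adjusted p = 0.0158).

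Of 9 MAPK feedback genes that passed, 3 rose against GFP and against YAP6SA and none fell, which is 33.3% called against 22.0% and 14.7% of all genes. *Spry1*, a Sprouty inhibitor of receptor tyrosine kinase signalling, rose by 1.64 (56.4 and 30.3 to 98.4 and 161 CPM, adjusted p = 0.00628). *Dusp6*, an ERK phosphatase, rose by 1.04 (adjusted p = 0.0424), and *Spred1*, which restrains RAS activation, rose by 0.96 (adjusted p = 0.0215). The batch 2 log2 differences (2.41, 1.53 and 1.28) exceeded those of batch 1 (0.80, 0.46 and 0.60). *Errfi1*, the inhibitor that acts on the receptors themselves, was not called.

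**Figure D5:**
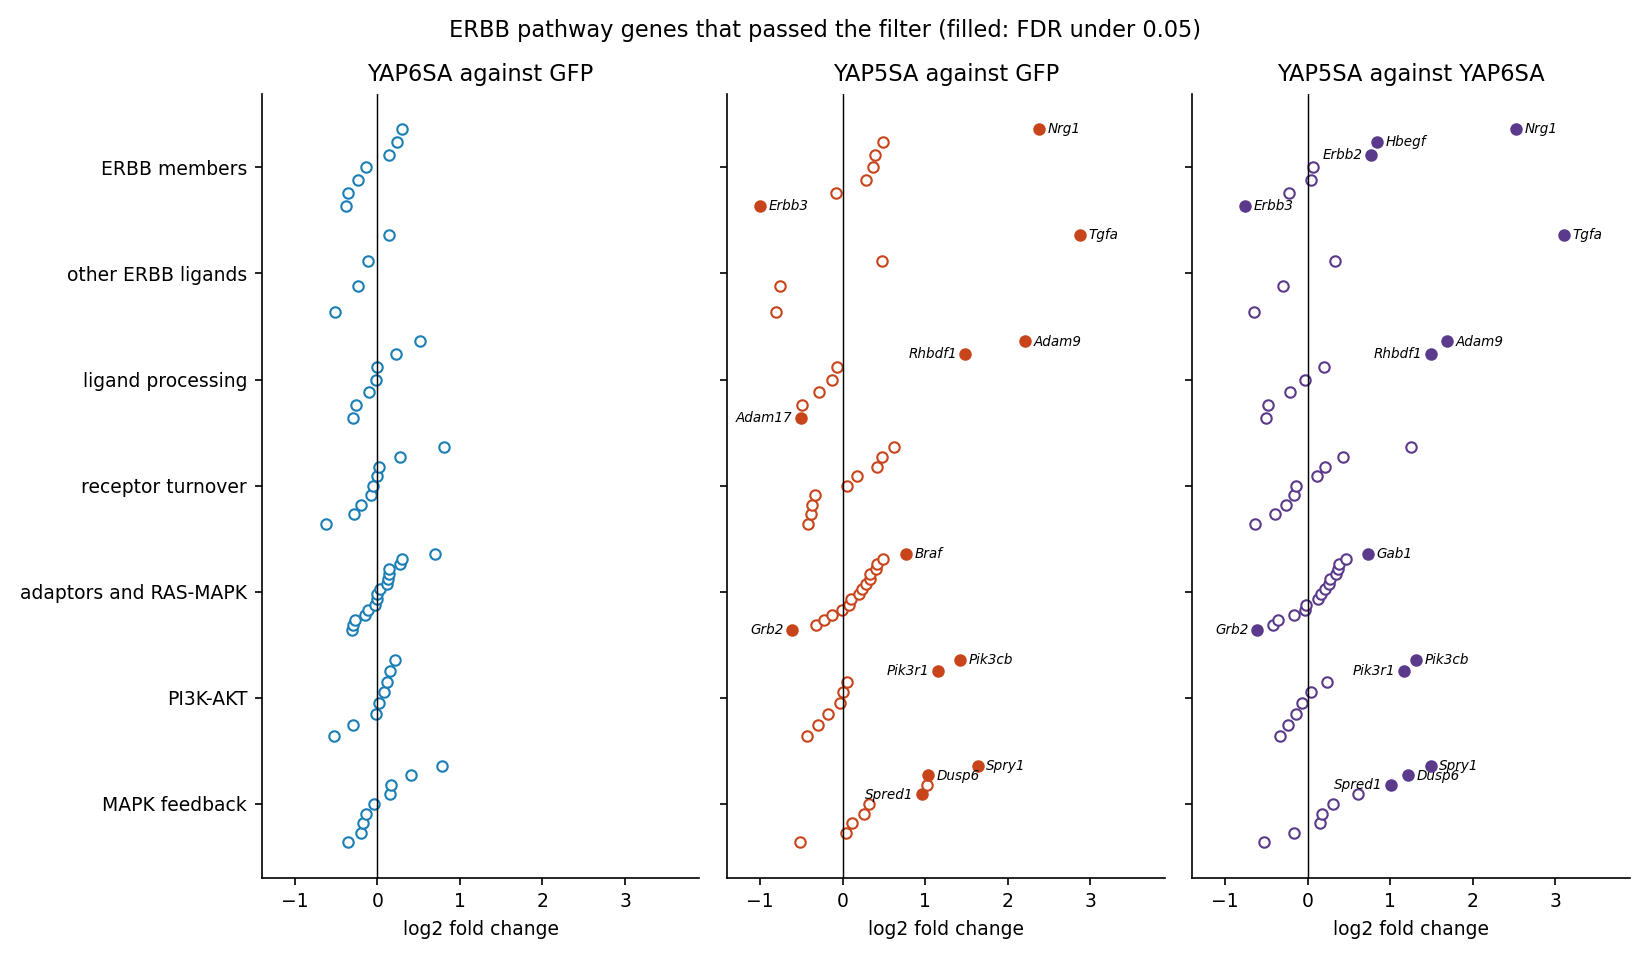
Log2 fold changes of the members and the other pathway genes that passed the filter, grouped by role on the vertical axis, in the 3 comparisons; filled points, named, have an adjusted p under 0.05. No point is filled for YAP6SA against GFP. *Tgfa* (2.88 and 3.11) and *Nrg1* (2.38 and 2.52) lie farthest to the right in the comparisons of YAP5SA, and both passed the filter only through YAP5SA.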

How the data were processed

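Nuclear RNA of 3 groups with 2 libraries each was analysed. The authors mapped reads with STAR to mm10 (Ensembl 94) and deposited raw counts per gene. They then used edgeR with a batch covariate, per the series' design text, and the same design was kept here. Samples were grouped by the treatment label. Genes were named from GENCODE M21, which gave exon lengths for RPKM.

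Genes with a median log2 CPM above 1 in at least 1 group were kept, scaled by TMM and fitted with batch and group over all 6 libraries (edgeR 4.0.16, glmQLFit and glmQLFTest, R 4.3.3), with Benjamini-Hochberg adjustment over 13323 genes. SE is the log2 change over the root of F. Differences within a batch used log2 CPM with a prior count of 2. The script was tested on simulated data. The chi-square between replicates was 30.9 (GFP), 35.7 (YAP6SA) and 49.4 (YAP5SA) per degree of freedom, so none were copies. The replicate number is the labelled batch, which pairs the libraries, and deviations of same-batch libraries correlated at 0.368, 0.0985 and 0.175.

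The members and the gene lists were chosen with earlier results of these data known. All 10 members were described, and of each pathway list at most the 3 called genes with the lowest p and a mean CPM of at least 1. Alternatives were other scalings, filters and tests (DESeq2 1.42.0, limma 3.58.1), no batch term, fits of 4 libraries and fits without each library. The batch term test and the fit without a filter for *Btc* were added after seeing the data. Some marker genes are not reported here.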

Additional observations from a re-analysis of the deposited data

How the results depend on the processing

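Groups of 2 libraries limit every result, and leaving 1 out assumes that the lone library varies like the others. In YAP6SA against GFP, 6 genes were called, against 145 with no filter, 54 by DESeq2, 82 by the likelihood ratio test, 276 in the fit of 4 libraries and 0 without the replicate block (518 at an unadjusted p under 0.05). In the same comparison, 2, 1 and 3 pathway genes were called with no filter, by the likelihood ratio test and in the fit of 4 libraries, against 0, and no alternative called a member. Without the replicate block, YAP5SA against YAP6SA had 1152 called genes against 1956, and 2 members against 4 (none lower, against 1). In YAP5SA against GFP the total without the block was 2090 against 2931, but lower calls went from 1223 to 759 and lower pathway calls from 2 to 1. The block changed no other call of a member.

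Without each library in turn, 0 to 5 members were called in YAP5SA against GFP, 0 to 4 in YAP5SA against YAP6SA and 0 each time in YAP6SA against GFP. Pathway genes called ran from 2 to 21, 2 to 17 and 0 to 2, and all genes from 738 to 4863, 396 to 4160 and 6 to 213, in the same order. In each comparison, the members called in it kept their direction in all of these fits. Signs turned only in comparisons in which the member was not called. In YAP6SA against GFP, the lowest and highest values without 1 library were -0.38 and 0.82 for *Egfr*, -0.75 and 0.028 for *Erbb2*, -1.57 and 0.65 for *Nrg1*, and -0.11 and 0.64 for *Errfi1*. In YAP5SA against GFP they were -0.32 and 0.86 for *Egfr*, -0.31 and 0.16 for *Erbb4*, and -0.033 and 0.75 for *Errfi1*. In YAP5SA against YAP6SA they were -0.38 and 0.36 for *Egfr*, -0.45 and 0.016 for *Erbb4*, and -0.32 and 0.47 for *Errfi1*. The cause was not tested. By CPM without length, *Erbb3* and *Hbegf* had nearly equal means in GFP CMs (38.01 and 37.95). *Erbb3* was the higher in batch 1 (38.8 against 33.9) and *Hbegf* in batch 2 (42.0 against 37.2). Scaling moved the median of all genes by under 0.1.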
